A study of Mus musculus with 28 samples.

Results

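The genomic window around Myc was followed in maps of 2 cytosine modifications, 5-hydroxymethylcytosine (5hmC) and 5-methylcytosine (5mC), in mouse blood progenitors. The window is the part of chromosome 15 from 61750001 to 63700000 (build mm9, 1.95 Mb), and its members are all peaks that overlap it by at least 1 bp. It held 951 of the 1489550 peaks of 11 deposited lists. It was divided into 39 steps of 50 kb. The stretches are described by their place: the step from 61800001 to 61850000 that holds Myc (the Myc step), the 5 steps from 61850001 to 62100000 where Pvt1 is placed (the Pvt1 stretch), the 26 steps from 62100001 to 63400000 (the middle), and the 5 steps from 63400001 to 63650000 where the far blood enhancer cluster is placed (the far stretch), with 1 edge step at each end. These placements are approximate, because no gene annotation of mm9 was used here, and exons, introns and UTRs are therefore not assigned.

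Myc encodes a transcription factor that drives cell growth and division, and its level is set tightly in blood stem and progenitor cells. Pvt1 is a long noncoding RNA gene next to Myc, and the stretch it spans holds regulatory elements that can act on the Myc promoter. A cluster of enhancers far downstream of Myc is used in blood cells and contacts the Myc promoter over the intervening DNA. TET enzymes oxidise 5mC to 5hmC, and 5hmC is commonly found over transcribed gene bodies and at enhancers, while active CpG-island promoters carry little of either mark. In the RefSeq order of genes (assembly GRCm38.p6, used for order only), the next protein-coding gene after Myc is Gsdmc, and the 16 genes between them are Pvt1, 8 other long noncoding RNA genes, 5 pseudogenes and 2 small RNA genes.

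The peak lists came from cells labelled LK, taken from bone marrow of C57BL/6 mice aged 6 to 10 weeks that were wild type (WT), lacked Tet2 (Tet2KO) or lacked both Tet1 and Tet2 (DKO). LK is the usual short name of lineage-negative, c-Kit-positive progenitors, but the labels do not spell it out, and markers of the cells could not be checked in peak lists. The sources used here do not give how the alleles were made or whether a library came from 1 animal or a pool. 5hmC was captured by selective chemical labelling in 2 libraries of each genotype, and 5mC by MeDIP, in which an antibody pulls down methylated DNA, in 2 WT, 2 DKO and 1 Tet2KO library. The other 17 of the 28 samples, RNA-seq libraries, were not analysed here, and the deletion of the Tet genes was not checked. No label ties the libraries of a genotype to separate animals, so a p-value here reflects the spread among libraries, which may be technical.

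The lists held 128471 to 143960 peaks for 5hmC and 120243 to 147934 for 5mC. The read depth behind them is unknown. Tet2KO replicate 1 had the lowest 5hmC of all libraries in the Pvt1 stretch. For percent covered of the window, the Pvt1 stretch and the far stretch, differences of both knockouts from WT are given with and without it. The mean lengths of regions shared by all 5hmC libraries are compared in both ways too. Other values include it unless stated.

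5hmC in the window was concentrated in 2 blocks with little between them. Regions were formed by merging peaks of all libraries of an assay that overlapped by at least 1 bp, which gave 181 regions for 5hmC, 52 of them with a peak in all 6 libraries (28.7%, against 29.9% of regions over the genome) and 51 in 1 library alone (28.2%, against 25.8%). The first block ran from the region at 61812958 to that ending at 62056568 (244 kb) and held 32 of these 52 constant regions, 3 in the Myc step and 29 in the Pvt1 stretch. The second block ran from 63435220 to 63571550 (136 kb) and held the other 20, all in the far stretch. The 1.38 Mb between the blocks had no constant region. The edges of the window were also bare, since no 5hmC peak of any library lay in the first 56.95 kb or the last 112 kb of the window.

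**Figure D1:**
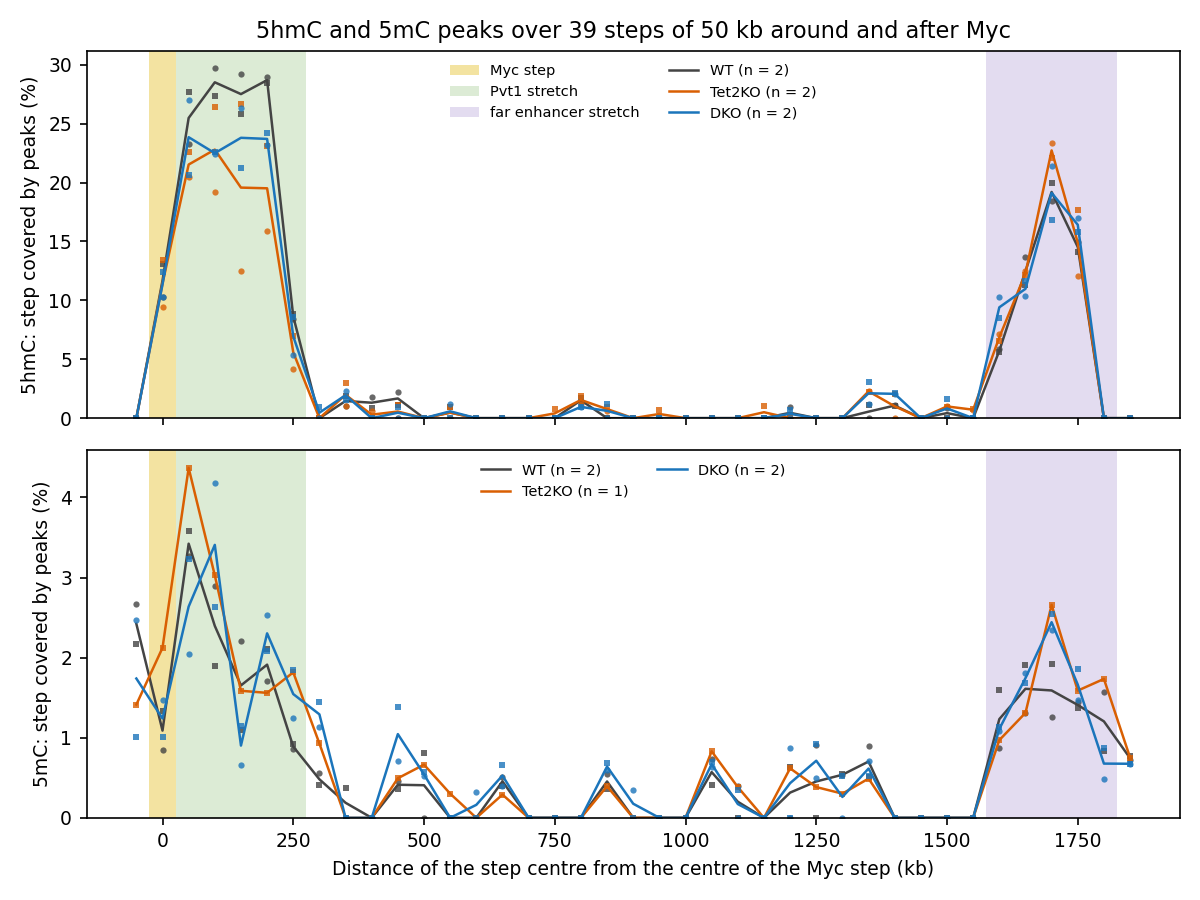
Percent of each 50 kb step covered by 5hmC peaks (top) and 5mC peaks (bottom) against the distance of the step from the Myc step in kb. Circles are replicate 1, squares replicate 2 and lines genotype means. 5hmC forms 2 blocks, over Myc and Pvt1 and in the far stretch, in all 6 libraries, while 5mC stays below 5% of every step.

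Within the Myc step, coverage by 5hmC peaks was moderate. It was 10.2% and 13.1% in WT, 9.46% and 13.4% in Tet2KO, and in DKO 10.3% and 12.4%. The 3 genotypes overlapped fully, and the mean over libraries, 11.5%, was above 72.7% of the 23487 steps tested over the genome. Of the 12 regions of the step, 3 were constant.

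The strongest 5hmC peak of the window lay in the same place in every list. It formed a region from 61820223 to 61821870 in the Myc step, and the peak had a score of 1043 and 824 in WT, 1165 and 1478 in Tet2KO, and in DKO 1112 and 1127. The score is the authors' own value of a peak, whose form resembles the log-scaled p-value that the peak caller MACS writes, and scores of different lists are not known to share a scale. Within its own list, this peak stood above 99.4% to 99.9% of all peaks. Its length was 1199 and 1356 bp in WT, 1166 and 1539 bp in Tet2KO, and in DKO 1379 and 1294 bp, so the genotypes overlapped. A second constant region followed directly, from 61821973 to 61824579, with 1592 and 2225 bp covered in WT, 2074 and 2498 bp in Tet2KO, and in DKO 2108 and 2277 bp. The third constant region lay before these, from 61812958 to 61813545, with 584 and 497 bp covered in WT and 402 to 512 bp in the 4 knockout libraries.

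The region with the strongest 5hmC also carried 5mC in all 5 MeDIP libraries. The 5mC peaks there were 424 and 380 bp long in WT, 547 bp in Tet2KO, and in DKO 489 and 503 bp. Their scores were 51.5 and 142 in WT, 419 in Tet2KO, and in DKO 227 and 313, which placed them above 3.10% and 67.2% of their own lists in WT, 92.5% in Tet2KO, and in DKO 81.4% and 89.9%. In WT replicate 1 the peak was therefore close to the lowest score of 50 that the lists hold. All 3 knockout peaks were longer than both WT peaks and ranked higher in their lists. How often 5mC regions over the genome show this order was not counted. Scores and ranks from separate lists cannot show whether the mark itself changed. The 5mC coverage of the whole Myc step did not separate DKO (1.47% and 1.01%) from WT (0.848% and 1.33%). It was highest in the single Tet2KO library, at 2.12%.

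The Pvt1 stretch was the part of the window densest in 5hmC. The steps starting at 61850001, 61900001, 61950001 and 62000001 had 23.6%, 24.6%, 23.6% and 23.97% covered on average over the 6 libraries, above 90.4% to 91.2% of the tested steps of the genome. The step starting at 61900001 was the highest of the window, with 29.7% and 27.3% in WT, 19.2% and 26.4% in Tet2KO, and in DKO 22.4% and 22.6%. Coverage then dropped to 7.06% in the step starting at 62050001 and to 0.155% in the next. The longest constant region of the window, from 61959057 to 61962691, had 3231 and 3158 bp covered in WT, 1279 and 2579 bp in Tet2KO, and in DKO 3456 and 2801 bp. It was shorter in Tet2KO than in WT in both libraries, while the DKO libraries lay on either side of WT. How often constant regions over the genome show this order was not counted.

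In the far stretch, 5hmC reached its peak in the step starting at 63500001. Coverage there was 18.45% and 19.95% in WT, 23.4% and 22.1% in Tet2KO, and in DKO 21.4% and 16.8%, and the mean of 20.4% was above 87.2% of the tested steps. The steps around it had means of 7.33% (63400001), 11.9% (63450001) and 15.3% (63550001), and the last step of the stretch, from 63600001, had no 5hmC peak in any library. The 20 constant regions lay between 1.62 and 1.75 Mb after the start of the strongest region of the Myc step. The longest of them, from 63480256 to 63483318, had 2850 and 2477 bp covered in WT, 2283 and 2347 bp in Tet2KO, and in DKO 1937 and 2436 bp, so that all 4 knockout libraries were below both WT libraries. This order was found in 13.8% of constant regions over the genome and in 2 of the 20 of the far stretch. Of these 20, 7 were shorter on average in the knockouts. The other constant regions of the far stretch with more than 2 kb were those from 63519911 to 63522322 (2412 bp), 63524175 to 63526246 (2072 bp) and 63566989 to 63569161 (2173 bp). A constant region from 63569551 to 63571550 spanned 2000 bp. Next in width came those from 63538980 to 63540566 (1587 bp), 63552277 to 63553549 (1273 bp) and 63555656 to 63556875 (1220 bp).

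**Figure D2:**
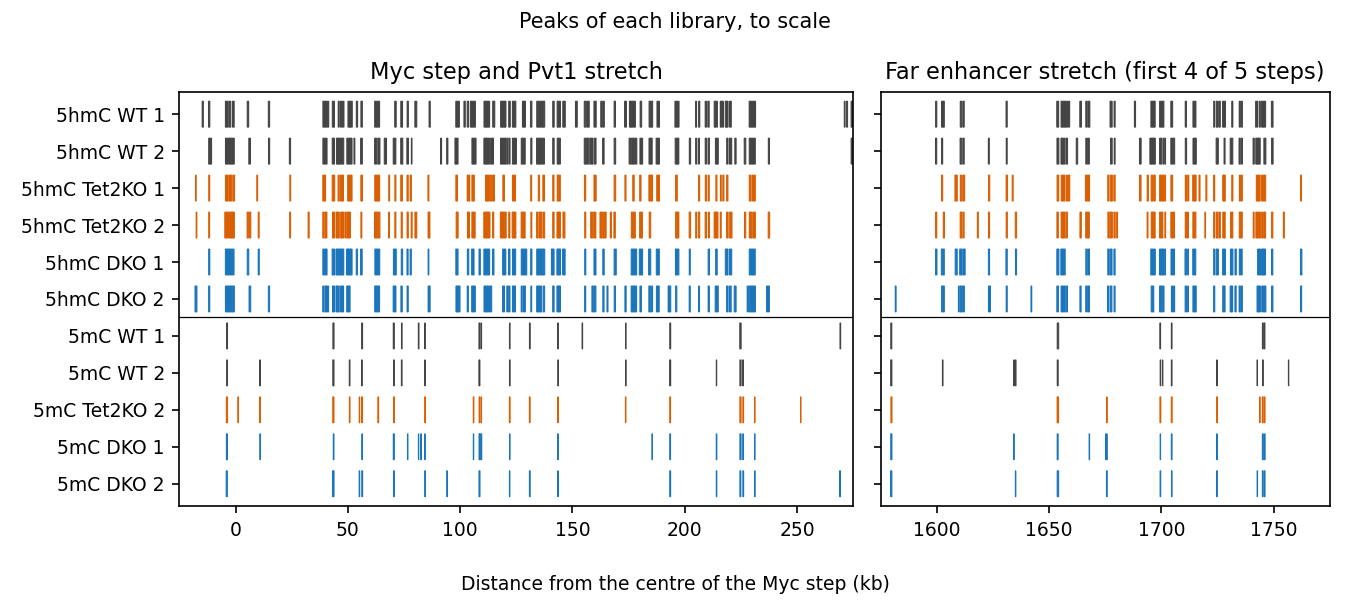
Peaks of each library drawn to scale, with a thin outline, against the distance from the centre of the Myc step in kb, for the Myc step with the Pvt1 stretch (left) and for the first 4 of 5 steps of the far stretch (right). Rows are libraries, with 5hmC above the line and 5mC below it. Of the 5hmC regions, 3 of 12 in the Myc step, 29 of 84 in the Pvt1 stretch and 20 of 53 in the whole far stretch have a peak in all 6 libraries.

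The middle held isolated and poorly shared 5hmC. Its coverage was 0.358% and 0.330% in WT, 0.284% and 0.631% in Tet2KO, and in DKO 0.295% and 0.505%. None of its 32 regions was constant, and 16 had a peak in 1 library alone. Of the 39 steps of the window, 14 had no 5hmC peak in any library, and 12 had one in every library.

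5mC peaks were sparse over the whole window. Coverage was 0.697% and 0.675% in WT, 0.794% in Tet2KO, and in DKO 0.748% and 0.756%. The median of the 24 tested steps was 0.997%, against 1.56% over the 34496 steps tested in the genome, and no step of the window reached a mean of 5%, which 14.6% of the tested steps did. The steps with the highest means were those starting at 61850001 (3.30%), 61900001 (2.93%) and 63500001 (2.14%), which lie in the Pvt1 stretch and the far stretch. Unlike 5hmC, 5mC was also present in both edge steps of the window. It covered on average 1.95% of the step from 61750001 and 0.718% of the step from 63650001. There were 11 steps with 5mC in at least 1 library and no 5hmC in any, 8 had the opposite, and 3 had neither.

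The strongest 5mC peak of the window was again the same in every list. It lay from 63404445 to 63405063, ahead of the second 5hmC block, with scores of 1583 and 1489 in WT, 1161 in Tet2KO, and in DKO 1613 and 1531, above 99.04% to 99.5% of the peaks of its list. No 5hmC library had a peak on it. A constant 5mC region at the end of the Pvt1 stretch, from 62049551 to 62050136, also had high scores (951 and 1206 in WT, 1130 in Tet2KO, 1103 and 776 in DKO) and no 5hmC region on it. The strongest sites of the marks lay apart, while the strongest 5hmC region carried 5mC of varied score.

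Of the 79 5mC regions, 26 (32.9%) were constant, against 32.3% over the genome, and 25 (31.6%) were in 1 library alone, against 30.4%. Of all 181 5hmC regions, 28 (15.5%) overlapped a 5mC region of any library, while 29.3% did over the genome. Of the 52 constant 5hmC regions, 17 (32.7%) did, while 42.9% did over the genome. Counting constant 5mC regions alone, the overlaps were 12 of 181 (6.63%, genome 12.8%) and 8 of 52 (15.4%, genome 19.9%). By place, 17 of 84 5hmC regions overlapped a 5mC region in the Pvt1 stretch, 9 of 53 in the far stretch, and 1 of 32 in the middle. Counted from the other side, 31 of 79 5mC regions (39.2%, genome 32.4%) lay on 5hmC, of which 17 were in the Pvt1 stretch and 12 in the far stretch, and 20 (25.3%, genome 15.8%) lay on constant 5hmC regions. Of the 26 constant 5mC regions, 12 (46.2%, genome 39.6%) lay on any 5hmC region and 8 (30.8%, genome 19.7%) on a constant one. These shares depend on the number and length of regions. The window had 181 5hmC and 79 5mC regions, while the genome had 206417 and 218122. The median length was 643 bp for 5hmC in the window (721 bp over the genome) and 311 bp for 5mC (341 bp).

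The order of steps by coverage was similar between libraries of a mark. Spearman's rho over the 39 steps was 0.822 to 0.951 for the 15 pairs of 5hmC libraries and 0.824 to 0.920 for the 10 pairs of 5mC libraries. Across marks it was 0.460 to 0.642 for 30 pairs. These values describe the shared pattern of blocks and bare steps, and neighbouring steps are not independent.

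The study asked what losing Tet2, or Tet1 and Tet2 together, does to both marks. Over the window as a whole, mean coverage by 5hmC peaks was 4.91% in WT, 4.34% in Tet2KO and 4.58% in DKO. The means thus did not fall steadily with the number of Tet genes lost. Read depth is unknown, so coverage by peaks does not measure the amount of the mark. The peaks covered 4.93% and 4.89% in WT, 3.70% and 4.97% in Tet2KO, and in DKO 4.65% and 4.5%. DKO lay below WT in both libraries, by -0.331 percentage points between means, and Tet2KO had the lowest and the highest value of all 6. How often windows of this length show DKO below WT over the genome was not counted. Whole lists covered 110 Mb on average in WT, 100 Mb in Tet2KO and 108 Mb in DKO. The window held 0.0867% of this length in WT, 0.0848% in Tet2KO and 0.0827% in DKO. The slope over the 3 genotypes was -0.166 points per genotype in the order WT, Tet2KO, DKO (exact two-sided permutation p = 0.667, smallest possible 0.0222), and both knockouts against WT differed by -0.451 points (exact two-sided permutation p = 0.400, smallest possible 0.0667). Without Tet2KO replicate 1, the difference of both knockouts from WT was -0.199 points, and that of Tet2KO alone turned from -0.572 to 0.0651 points. With 2 libraries in each of 2 groups the smallest possible p is 0.333.

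By block, 5hmC peaks covered less of the Pvt1 stretch in the knockouts than in WT on average, and slightly more of the far stretch. With 2 against 4 libraries the smallest possible p is 0.0667, so no test of a stretch could pass 0.05. In the Pvt1 stretch, 5hmC covered 23.9% and 23.6% in WT, 14.5% and 21.1% in Tet2KO, and in DKO 20.9% and 19.4%. All 4 knockout libraries were below both WT libraries, with means of 23.8% ± 0.207 (SD, n = 2) in WT and 18.98% ± 3.11 (SD, n = 4) in the knockouts, a difference of -4.79 points (exact two-sided permutation p = 0.133, adjusted 0.222 over 5 comparisons). Of all runs of 5 steps in the genome with 5hmC in at least 2 libraries, 13.5% showed the same order, so this separation was common. Without Tet2KO replicate 1 the difference was -3.28 points. As covered kb of the stretch per Mb covered in the whole list, the difference was -0.0817 (exact two-sided permutation p = 0.267), and Tet2KO replicate 2 (0.537) lay between the WT libraries (0.535 and 0.541).

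In the far stretch, coverage was 10.6% and 10.2% in WT, 11.03% and 11.7% in Tet2KO, and in DKO 11.8% and 10.6%. Here 3 of the 4 knockout libraries were above both WT libraries and DKO replicate 2 lay between them. The means were 10.4% ± 0.286 (SD, n = 2) in WT and 11.3% ± 0.583 (SD, n = 4) in the knockouts, a difference of 0.882 points (exact two-sided permutation p = 0.2, adjusted 0.250 over 5 comparisons). Runs of 5 steps with all 4 knockouts above WT made up 7.53% of those in the genome. Without Tet2KO replicate 1 the difference was 0.963 points. As covered kb of the stretch per Mb covered in the whole list, the difference was 0.0362 (exact two-sided permutation p = 0.133). At this scaling all 4 knockout libraries (0.250 to 0.297) lay above both WT libraries (0.237 and 0.233). How often this order occurs over the genome at this scaling was not counted. In the Myc step the knockouts differed from WT by -0.284 points (exact two-sided permutation p = 0.800, adjusted 0.800).

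Expressed as shares of the covered 5hmC length of the window, the Pvt1 stretch held 62.3% and 61.9% in WT, 50.1% and 54.5% in Tet2KO, and in DKO 57.5% and 55.4%. All knockout libraries were lower, by -7.70 points between means (exact two-sided permutation p = 0.0667, the smallest that 15 splits allow, adjusted 0.222 over 5 comparisons). The far stretch held 27.6% and 26.7% in WT, 38.2% and 30.1% in Tet2KO, and in DKO 32.6% and 30.1%, and all knockout libraries were higher (5.61 points, exact two-sided permutation p = 0.133, adjusted 0.222). The 2 shares are parts of 1 whole, so they are not separate evidence. How often such shares separate the genotypes elsewhere in the genome was not counted. Without Tet2KO replicate 1 the differences were -6.28 points for the Pvt1 stretch and 3.78 points for the far stretch. The tests on stretches were chosen after the values were seen.

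**Figure D3:**
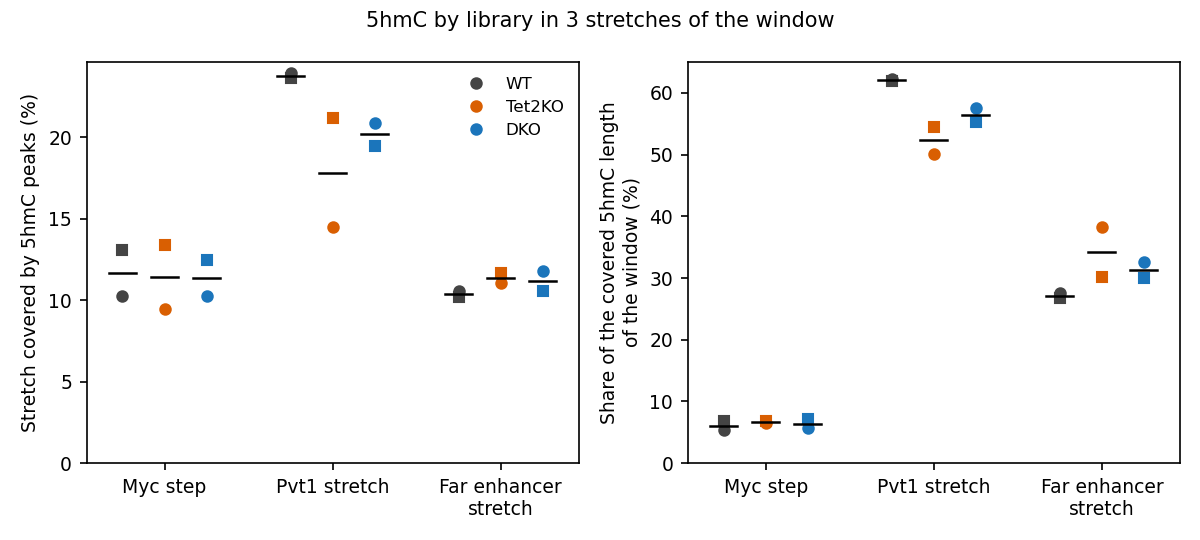
Percent of a stretch covered by 5hmC peaks (left) and share of the window's covered 5hmC length that lies in it (right), by library. Circles are replicate 1, squares replicate 2 and bars means of 2 libraries. In the Pvt1 stretch all 4 knockout libraries lie below both WT libraries, and in the far stretch their share lies above. For coverage, 13.5% of runs of 5 steps in the genome have all 4 below, and for shares this was not counted.

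The lengths of constant regions were also compared by block, without a test. In the Pvt1 stretch, 25 of 29 constant regions were shorter on average in the knockouts than in WT, with a median log2 ratio of -0.19. In the far stretch 7 of 20 were shorter, with a median of 0.07. Over the 61659 constant regions of the genome, 64.6% were shorter on average, with a median of -0.07. Over the same regions without Tet2KO replicate 1, 21 of 29 were shorter in the Pvt1 stretch (72.4%, median -0.09) and 9 of 20 in the far stretch (median 0.01), against 63.0% over the genome. Counting only regions with all 4 knockout libraries below both WT libraries, there were 6 of 29 in the Pvt1 stretch and 2 of 20 in the far stretch, against 13.8% over the genome, and no region of the window had all 4 above, against 4.17%. Those shorter in all 4 included the region from 61942925 to 61945526, with 2337 and 2363 bp in WT, 687 and 2334 bp in Tet2KO, and in DKO 1349 and 865 bp, and that from 61929575 to 61932098, with 2245 and 1822 bp in WT, 1080 and 1452 bp in Tet2KO, and in DKO 1072 and 1610 bp. These 2 regions were singled out after their values were seen.

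**Figure D4:**
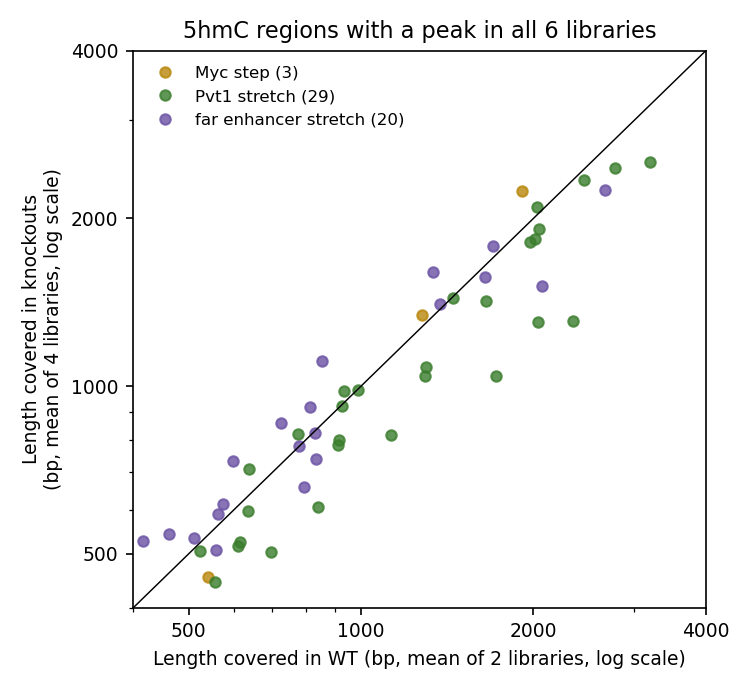
Length covered by peaks in the knockouts against WT, in bp on log scales, for the 52 regions of the window with a 5hmC peak in all 6 libraries. The line marks equal length. Of the 29 regions of the Pvt1 stretch 25 lie below the line, and of the 20 of the far stretch 7 do.

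Step by step, no step of the window passed the test of Tet2KO against WT. The covered fraction of each 50 kb step was transformed by the arcsine of its square root, fitted with limma on all steps of the genome that had a peak in at least 2 libraries, and adjusted by Benjamini-Hochberg over all of them. At an adjusted p under 0.05, 0 of 21 tested steps were called, and 0% of the 23487 steps of the genome were called in either direction. At an unadjusted p under 0.05, 1 step was lower and 1 higher, against 7.95% lower and 3.7% higher over the genome. The lower one, starting at 62000001 in the Pvt1 stretch, had 28.97% and 28.4% covered in WT against 15.9% and 23.1% in Tet2KO (limma, adjusted p = 0.353). Its difference on the arcsine scale was -0.109, and -0.0640 without Tet2KO replicate 1. The higher one, starting at 63350001 just before the far stretch, had no peak in either WT library and 0.664% and 0.772% in Tet2KO (limma, adjusted p = 0.390).

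For DKO against WT, 0 of 21 steps were called in limma, as were 0% of the genome's. Here 1 step was higher and 1 lower at an unadjusted p under 0.05, against 4.52% and 4.04% of steps over the genome. The higher one was the first step of the far stretch, from 63400001, with 10.3% and 8.54% in DKO against 5.85% and 5.60% in WT (limma, adjusted p = 0.510) and 7.18% and 6.54% in Tet2KO. The lower one, from 62200001, had 1.8% and 0.824% in WT and no peak in DKO (limma, adjusted p = 0.517). For DKO against Tet2KO, 0 of 21 steps were called in limma (0% over the genome), and 1 was lower at an unadjusted p under 0.05, against 2.38% over the genome, and none was higher, against 5.45%. It was the step from 63350001, where DKO had no peak (limma, adjusted p = 0.604), and next came the step from 63400001 (limma, adjusted p = 0.713).

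All 4 knockout libraries lay below both WT libraries in 4 of the 21 tested steps, against 12% of steps over the genome, and above both in 2, against 6.22%. The 4 were those starting at 61900001 and 62000001 in the Pvt1 stretch and at 62200001 and 62250001 beyond it. The 2 were those starting at 63150001 in the middle and 63400001 in the far stretch.

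Regions lost or gained between genotypes made up 0.552% to 4.42% of the window's 5hmC regions, against 2.21% to 4.18% over the genome. Lost regions had a peak in each reference library and in no library of the genotype compared with it, and gained regions the reverse. For Tet2KO against WT, 6 of 181 regions were lost and 8 gained (3.27% and 3.42% over the genome). For DKO against WT, 7 were lost and 8 gained (3.3% and 4.18%), and for DKO against Tet2KO, 6 were lost and 1 gained (2.21% and 2.81%). The contrasts share libraries, so their counts are not independent. In all, 23 regions were lost or gained in at least 1 contrast, with lengths of 444 to 1330 bp. Of the 23, 1 overlapped a 5mC region of any library, against 15.5% of all 5hmC regions of the window and 29.3% over the genome. The share among changed regions over the genome was not counted.

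By place, the Pvt1 stretch had, of 84 regions, 3 lost and 2 gained in Tet2KO and 5 lost and 1 gained in DKO. The far stretch had, of 53 regions, 0 lost and 3 gained in Tet2KO and 0 lost and 4 gained in DKO. Of the 12 regions of the Myc step, Tet2KO lost 1 and gained 1, and DKO neither. Over the genome, 3.27% of regions were lost and 3.42% gained in Tet2KO, and 3.3% and 4.18% in DKO. Counts this small were not tested, and they change with the filters on peaks.

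The regions lost in both knockouts numbered 4. The widest, from 61981176 to 61982505, lay 152 bp after a constant region (61980285 to 61981023). That constant region had 659 and 735 bp in WT and 478 to 568 bp in the knockouts. It was thus shorter in all 4 knockouts, as were 13.8% of constant regions over the genome. The other regions lost in both knockouts were those from 62000266 to 62001167, 62099115 to 62099637 and 62610968 to 62611824, of which the last, in the middle, had WT scores of 106 and 125. The region from 62000266 ended 6 bp before a constant region (62001174 to 62003697). That from 62610968 began 36 bp after a region (62610393 to 62610931) with a peak in Tet2KO replicate 2 and both DKO libraries, which was itself called gained in DKO. Another 4 were gained in both knockouts. They lay from 61910686 to 61911160 in the Pvt1 stretch, 63197862 to 63198519 in the middle, and 63501031 to 63501819 and 63536687 to 63537243 in the far stretch. That from 61910686 ended 12 bp before a region (61911173 to 61911710) with a peak in WT replicate 1, Tet2KO replicate 2 and DKO replicate 2. The region from 63501031 had scores of 96.7 and 125 in the Tet2KO lists and of 120 and 64.8 in the DKO lists. The other regions gained there in either knockout had scores of 50.2 to 77.7, near the lowest score of the lists.

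Among the other changed regions, the widest gained in Tet2KO lay in the Myc step, from 61806952 to 61807801. There DKO replicate 2 had a peak as well. A region of the same step, from 61839600 to 61840198, was called in both WT libraries and in neither Tet2KO library, and again DKO replicate 2 had a peak; it was singled out after its values were seen. The region gained in DKO against Tet2KO, from 63557778 to 63558381, was absent from WT too, and the next gained in DKO against WT, from 63586983 to 63587587, also had a peak in Tet2KO replicate 1. Of those lost in DKO against Tet2KO, the widest were those from 62034126 to 62034763, which both WT libraries had, 62639903 to 62640493, which neither had, and 61848972 to 61849546, which WT replicate 2 had.

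For 5mC, peak coverage of the window was slightly higher in both DKO libraries than in both WT libraries. How often windows of this length show this order over the genome was not counted. The window coverage of 0.748% and 0.756% in DKO was above the 0.697% and 0.675% in WT, a difference of 0.0661 percentage points (exact two-sided permutation p = 0.333, the smallest that 2 against 2 libraries allow). No step was called in limma (0 of 24, 0% of the 34496 steps of the genome). There was 1 step higher in DKO at an unadjusted p under 0.05 and none lower, against 2.3% and 2.55% over the genome. It started at 62100001, just after the Pvt1 stretch, with 1.14% and 1.44% in DKO against 0.556% and 0.406% in WT (limma, adjusted p = 0.929). The next was the step of the far stretch from 63500001, with 2.34% and 2.54% in DKO against 1.26% and 1.92% in WT (limma, adjusted p = 0.929).

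Of the 79 5mC regions, 2 were lost and 3 gained in DKO (2.37% and 2.53% over the genome). Both lost regions lay in the Pvt1 stretch on 5hmC regions, from 61898858 to 61899168 and from 61998618 to 61998923. The gained ones lay in the Pvt1 stretch on a 5hmC region of every library (62056107 to 62056356), in the middle (62123748 to 62124173), and in the far stretch (63500578 to 63500914), and the single Tet2KO library had a peak on each of the 3. The last lay just before the 5hmC region gained in both knockouts from 63501031. The single Tet2KO library covered 2.12% of the Myc step, more than any other library, and no step of the window was called against WT in limma (0 of 24, against 0% lower and 0.0029% higher over the genome). At an unadjusted p under 0.05 there were 0 as well, against 3.03% lower and 1.86% higher steps over the genome. These values describe 1 library, with no replicate of its genotype. The lowest p-values in the window were in the steps from 62050001, with 1.82% covered against 0.862% and 0.916% in WT, and from 61800001 (limma, adjusted p = 0.969 for both).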

How the data were processed

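Peak lists of 5hmC (6 libraries) and 5mC (5 libraries) were used as deposited, on mm9. The submitters' processing notes name CASAVA 1.4, Bowtie 0.12.9, TopHat2 2.0.8, Cuffdiff 2.2.1 and MACS 1.4.2 without roles. Each list holds the peaks of 1 library with the authors' score, at least 50; the sources used here give neither read depth nor a control library, so sensitivity may differ between lists. The Tet2KO 5mC library is replicate 2 by its title and 1 by its list's name; the title was followed. Covered fractions of 50 kb steps with a peak in at least 2 libraries were arcsine-square-root transformed, fitted per assay with limma 3.58.1 (R 4.3.3, trend) and adjusted by Benjamini-Hochberg. Single values were tested by exact permutation over libraries. Named were the 3 steps highest in each mark, the 2 with the smallest p per contrast, constant regions of the Myc step and the 8 widest of the far stretch, the 3 widest lost or gained regions per contrast, those changed in both knockouts, and each list's strongest peak. The window and stretches were chosen with earlier results of these data known. Alternatives changed score, step, filter, scaling, merging and libraries.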

Additional observations from a re-analysis of the deposited data

How the results depend on the processing

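The labels do not show that replicate numbers pair libraries: deviations of same-numbered libraries correlated at -0.00288, 0.0380 and 0.0335 for 5hmC and -0.0451 for 5mC, and with the replicate number as a block 0 steps of the window were called in limma in each contrast. As a share of all covered length, DKO against Tet2KO turned to -0.00205. With log2 of peak number + 1, limma called the step from 63350001 for 5hmC, 1 of 21 steps higher in Tet2KO against WT (0.984% higher over the genome) and 1 lower in DKO against Tet2KO (0.690% lower). It also called the step from 62100001 for 5mC, 1 of 24 higher in DKO against WT (1.53%) and 1 in the single Tet2KO library against WT (1.97%). In these calls the peak number was the same in all libraries of a group. With scores of at least 100, the step from 63400001 turned to -0.00507 on the arcsine scale in DKO against Tet2KO. At scores of at least 100, regions in every library numbered 28 for 5hmC and 15 for 5mC, and at 200 they numbered 5 and 7. For Tet2KO against WT, lost regions numbered 0 at 200 and 3 with gaps of up to 500 bp merged, and gained ones 1 at 100 and 3 at 200. For DKO against WT, lost regions numbered 4 at 100, 1 at 200 and 4 with merging, and gained ones 2 at 100 and 4 with merging. For DKO against Tet2KO, lost regions numbered 1 at 100 and 1 at 200. For 5mC, lost regions numbered 0 at 100, 0 at 200 and 1 with every list reduced to the same number of top peaks, and gained ones 1 at 200. Leaving out each library in turn, the window difference ranged from -1.21 to 0.0651 points for Tet2KO against WT (the highest without Tet2KO replicate 1) and from -0.396 (without the same library) to 0.877 for DKO against Tet2KO. It ranged from -0.624 to -0.199 for both knockouts against WT, and the slope from -0.255 to -0.100. In the same way 5hmC regions lost and gained were 10 to 17 and 12 to 29 in Tet2KO, 11 to 22 and 12 to 22 in DKO, and 10 to 28 and 4 to 18 in DKO against Tet2KO, since 1 library then stands for a group. For 5mC they were 2 to 9 and 5 to 12, and regions in every library were 53 to 60 for 5hmC and 26 to 29 for 5mC. The cause of the other shifts was not tested. Requiring a mean covered fraction of 0.05 left no 5mC step of the window. Read depth is unknown, so absence of a peak does not show absence of the mark.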
